A study of Mus musculus with 6 samples.

Results

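The dual-specificity MAP kinase phosphatases described here are 10 genes, Dusp1, Dusp2, Dusp3, Dusp4, Dusp5, Dusp6, Dusp7, Dusp10, Dusp16 and Dusp22, of the 18194 genes that the array's annotation names. They were chosen by gene symbol, and all 16 probe sets carrying these symbols were used. Transcripts were measured on Affymetrix arrays. The samples are myeloid cells sorted from femur and tibia bone marrow, taken from HdcGFP females of C57BL/6 background, whose green fluorescent protein reports Hdc. This gene encodes histidine decarboxylase, which makes histamine. The GFP_plus group held 3 samples of CD11b+Gr1+ cells with positive or high reporter signal, and the GFP_min group 3 samples of CD11b+Gr1+ cells with negative or low signal. All 6 samples share the reporter genotype, and the labels give no age or treatment.

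Most of these enzymes remove phosphate from both the threonine and the tyrosine whose phosphorylation switches a MAP kinase on. By this they end or limit signalling by ERK, JNK and p38. Many are themselves transcribed in response to the kinases they inactivate, which makes them feedback regulators. In myeloid cells they are known for limiting the duration of responses to growth factors and microbial products. Members differ in where they act and in which kinases they prefer, and the small atypical members lack the kinase-binding domain of the others.

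The description of GFP_min replicate b reads Gr1- although its sorted-cell label is Gr1+, and the results on members are therefore also given without it. Values are the authors' log2 values, with array medians between 2.82 and 2.88. Itgam, which encodes CD11b, was 11.58 ± 0.23 in GFP_min and 11.84 ± 0.13 in GFP_plus (log2, mean ± SD, n = 3 each), well above those medians. A probe set annotated to both Ly6c genes was 13.38 and 13.29, and no probe set used here is annotated to Ly6g. The transcript of Hdc was also well above the medians in both groups. One Hdc probe set was 11.19 in GFP_min and 12.01 in GFP_plus (difference 0.82), and another 10.65 and 11.24 (difference 0.59). Arrays of a group correlated at 0.995 to 0.997 over tested probe sets and arrays of different groups at 0.961 to 0.967. Whether each sample is a different mouse is not in the labels. All p-values therefore speak to the spread between these samples alone, which may be technical, and precision is limited by the number of arrays. A gene was tested with limma if its probe set exceeded the median of its array on at least 3 of the 6 arrays. Of 10810 genes tested, 48.7% passed at an adjusted p under 0.05, 21.0% as higher and 27.6% as lower in GFP_plus.

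The comparison asks how these phosphatase transcripts differ between CD11b+Gr1+ marrow cells with high and with little Hdc reporter signal. The family divided. Dusp1, Dusp5, Dusp6 and Dusp16 were higher in GFP_plus, by 0.43 to 1.21 on the log2 scale. Dusp3, Dusp7 and Dusp22 were lower, with differences of −1.17 to −5.63. Dusp22 was 45.1-fold lower with GFP_plus values below the median of their array raised to it, since its GFP_plus values lay near the array medians. Dusp10 did not pass, and Dusp2 and Dusp4 were too dim to be tested. Thus 8 of the 10 members were tested, of which 4 were higher and 3 lower, beside the 21.0% and 27.6% of all genes. In 7 of the 8 the groups did not overlap, as in 59.3% of all genes. Without GFP_min replicate b the counts were again 4 higher and 3 lower.

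The 250 bases before the annotated starts of Dusp1, Dusp5, Dusp16 and Dusp22 are shown because the members moved in opposite directions. The first 3 are members that rose and whose windows hold the core of the cAMP response element (CRE), and Dusp22 is the member that fell most. Sequences are from RefSeq on GRCm38.p6 and run 5′ to 3′ on the strand of the gene. Capitals mark TGACG or its reverse complement, the CRE core. The Dusp1 window is chr17:26508473-26508722 on the minus strand, that of Dusp5 chr19:53528895-53529144 on the plus strand, that of Dusp16 chr6:134792629-134792878 on the minus strand and that of Dusp22 chr13:30659809-30660058 on the plus strand.
Dusp1: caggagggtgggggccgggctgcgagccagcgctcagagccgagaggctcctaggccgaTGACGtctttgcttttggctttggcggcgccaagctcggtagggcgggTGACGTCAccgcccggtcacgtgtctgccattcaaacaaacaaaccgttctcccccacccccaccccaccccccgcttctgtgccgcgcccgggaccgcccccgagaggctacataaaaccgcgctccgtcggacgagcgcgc
Dusp5: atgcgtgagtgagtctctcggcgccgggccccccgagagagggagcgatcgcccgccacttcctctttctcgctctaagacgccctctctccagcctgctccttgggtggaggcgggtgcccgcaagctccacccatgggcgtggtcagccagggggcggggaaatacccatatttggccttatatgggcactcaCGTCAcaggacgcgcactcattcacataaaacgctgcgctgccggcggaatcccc
Dusp16: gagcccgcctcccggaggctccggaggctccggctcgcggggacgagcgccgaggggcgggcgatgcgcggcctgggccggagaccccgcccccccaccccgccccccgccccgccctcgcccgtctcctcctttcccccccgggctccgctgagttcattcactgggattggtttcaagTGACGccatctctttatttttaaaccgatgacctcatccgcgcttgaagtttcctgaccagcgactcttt
Dusp22: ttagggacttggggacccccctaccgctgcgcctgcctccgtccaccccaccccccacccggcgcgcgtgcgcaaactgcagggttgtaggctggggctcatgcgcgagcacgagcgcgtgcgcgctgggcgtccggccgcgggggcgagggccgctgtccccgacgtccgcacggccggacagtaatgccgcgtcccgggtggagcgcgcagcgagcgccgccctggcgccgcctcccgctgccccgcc

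Windows were matched by symbol for 9 of the 10 members, without Dusp4. Each motif was searched on both strands, with positions counted from the first base of a match as printed. The CRE core lay in 3 of the 9 windows, beside 17.7% of the 32817 windows of this length in the table. In Dusp1 it occurred 3 times, 191, 143 and 140 bases before the start, and the last 2 overlap on opposite strands as the palindrome printed in capitals above. In Dusp5 it lay 55 and in Dusp16 70 bases before the start. It was in neither the window of Dusp6, which also rose, nor those of Dusp3, Dusp7 and Dusp22, which fell. The GC box (GGGCGG, either strand), in 32.7% of all windows, was in 7 of the 9 member windows, Dusp6 and Dusp7 being those without it. The CArG box, the serum response element core, in 1.47% of all windows, was in Dusp5, with matches 82 and 72 bases before the start. The PU.1 core GAGGAA (23.3% of all windows) was in Dusp5 and Dusp6, and the E-box CACGTG (6.02%) in Dusp1 and Dusp2. The AP-1 site TGANTCA (6.75%) and the ETS site CCGGAA (12% of all windows) were in none of the 9. No match overlapped one of another motif. These matches describe letters in a window and were not tested against the expression values.

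**Figure D1:**
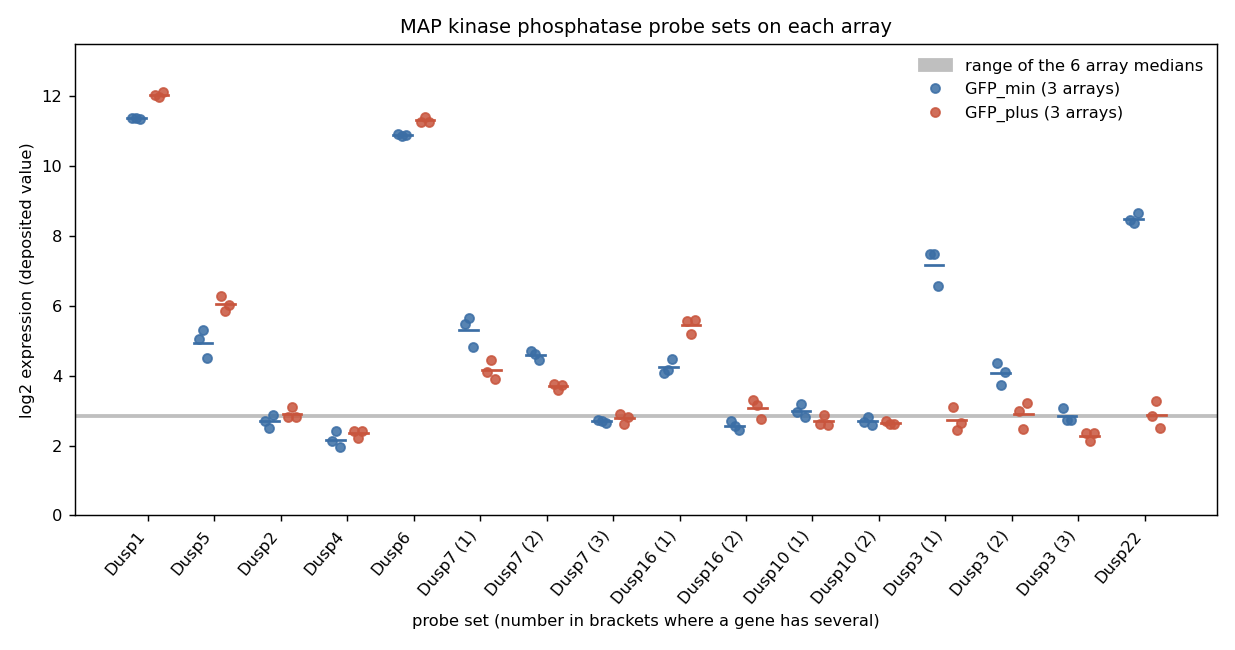
Log2 expression (vertical axis) of the 16 member probe sets on each array, with points for the 3 GFP_min and 3 GFP_plus arrays, short lines for group means and a grey band for the range of the 6 array medians. Dusp1 and Dusp6 were far above the array medians in both groups, while Dusp22 (8.38 to 8.67) and the brightest of the 3 Dusp3 probe sets (6.57 to 7.48) were above them in GFP_min and near them in GFP_plus.

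The inducible nuclear phosphatases are represented by Dusp1, Dusp2, Dusp4 and Dusp5. Dusp1, an immediate early gene whose product inactivates p38 and JNK and restrains cytokine production in macrophages, was 11.39, 11.38 and 11.34 on GFP_min arrays a, b and c and 12.04, 11.99 and 12.12 on GFP_plus arrays a, b and c. Every GFP_plus array was higher than every GFP_min array. The difference was 0.68 (SE 0.05, limma adjusted p = 4.58e-06), a 1.6-fold rise, and 531 of the 10810 genes rose by more. With the arrays centred on poly-A control RNAs it was 0.26 and did not pass (adjusted p = 0.157).

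Dusp5, a nuclear phosphatase that acts on ERK alone and anchors it in the nucleus, was 5.04, 5.30 and 4.50 in GFP_min and 6.27, 5.86 and 6.02 in GFP_plus. The groups did not overlap, and the lowest value was that of GFP_min c. Dusp5 rose by 1.10 (SE 0.21, limma adjusted p = 0.00201), 2.15-fold, and 115 genes rose by more.

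Dusp2, a nuclear phosphatase of activated leukocytes, was 2.70, 2.51 and 2.87 in GFP_min and 2.81, 3.10 and 2.82 in GFP_plus. The groups overlapped, and 1 array of each group lay above its median. Fitted without the level filter, the difference was 0.22 with a 95% interval of −0.06 to 0.50 (limma adjusted p = 0.263). Dusp4, a nuclear phosphatase close to Dusp1, was 2.13, 2.41 and 1.97 in GFP_min and 2.41, 2.23 and 2.43 in GFP_plus, below the median on all 6 arrays. Its unfiltered difference was 0.19 with a 95% interval of −0.08 to 0.45 (limma adjusted p = 0.319). These probe sets give no usable level for Dusp2 or Dusp4 in either group, and no fold is given.

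The cytoplasmic ERK phosphatases moved in opposite directions. Dusp6, a feedback gene of ERK signalling whose product holds and inactivates ERK in the cytoplasm, was 10.93, 10.85 and 10.88 in GFP_min and 11.28, 11.40 and 11.27 in GFP_plus. The groups did not overlap. Dusp6 rose by 0.43 (SE 0.06, limma adjusted p = 0.000244), 1.35-fold, the smallest change among the 7 members that passed, and 1369 genes rose by more. With poly-A centring its difference was 0.0058 (adjusted p = 0.978).

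Dusp7, its cytoplasmic relative, was 5.48, 5.65 and 4.83 in GFP_min and 4.10, 4.45 and 3.90 in GFP_plus by its brightest probe set. Again no value of a group reached into the other. The difference was −1.17 (SE 0.23, limma adjusted p = 0.00222), 2.25-fold, and 768 genes fell by more. A second probe set of Dusp7 differed by −0.88 (SE 0.13, limma adjusted p = 0.00045), from 4.59 ± 0.14 to 3.71 ± 0.09 (mean ± SD, n = 3 each). The other probe set lay near the array medians, at 2.70 and 2.79, and was not tested. With centring on ribosomal protein genes the Dusp7 difference was −0.35 and did not pass (adjusted p = 0.147).

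Of the phosphatases that prefer JNK and p38, Dusp16 rose and Dusp10 did not pass. Dusp16, which shuttles between nucleus and cytoplasm, was 4.09, 4.18 and 4.47 in GFP_min and 5.55, 5.21 and 5.60 in GFP_plus. All GFP_plus arrays were above all GFP_min arrays. The rise of 1.21 (SE 0.16, limma adjusted p = 0.000251), 2.31-fold, was exceeded by 78 genes and is the largest rise of the family. Its dimmer probe set was 2.72, 2.55 and 2.45 in GFP_min and 3.31, 3.15 and 2.76 in GFP_plus. It was above the median on 2 of the 6 arrays and so was not tested with the filter. Without the filter it differed by 0.50 (limma adjusted p = 0.0258).

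Dusp10 was 2.95, 3.20 and 2.82 in GFP_min and 2.62, 2.88 and 2.58 in GFP_plus. The groups overlapped, all values lay close to the array medians, and the difference was −0.30 with a 95% interval of −0.58 to −0.02 (limma adjusted p = 0.0813). It passed without GFP_plus replicate b (−0.39, limma adjusted p = 0.0406), with the replicate block (0.0484) and with poly-A centring (−0.72). Ribosomal centring gave 0.52 with the opposite sign, which also passed. The second probe set of Dusp10 was 2.69 and 2.64.

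The small atypical members showed the largest differences of the family. Dusp22, known as an activator of JNK signalling and an inhibitor of T cell receptor signalling, was 8.45, 8.38 and 8.67 in GFP_min and 2.84, 3.27 and 2.51 in GFP_plus. It was far above the array medians on all 3 GFP_min arrays and above the median on 1 of the 3 GFP_plus arrays. With GFP_plus values below the median of their array raised to it, Dusp22 was 45.1-fold lower. This is a point value on the deposited scale, not a lower confidence limit. The measured difference was −5.63 (SE 0.19, limma adjusted p = 1.95e-08), and its size depends on GFP_plus values that are near background.

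Dusp3, which dephosphorylates ERK and JNK, was 7.48, 7.48 and 6.57 in GFP_min and 3.12, 2.45 and 2.66 in GFP_plus by its brightest probe set. The GFP_min value of replicate c was the lowest of its group and still far above every GFP_plus value. Only 1 of the 3 GFP_plus arrays was above its median. With the values below the median raised to it, this probe set was 18.7-fold lower, again a point value on the deposited scale. Its measured difference, which has the same limit as that of Dusp22, was −4.43 (SE 0.26, limma adjusted p = 9.28e-07). A second Dusp3 probe set was 4.38, 3.73 and 4.09 in GFP_min and 3.00, 2.47 and 3.22 in GFP_plus. It differed by −1.17 (SE 0.21, limma adjusted p = 0.00154), 2.25-fold and less than the brightest probe set. The 18.7-fold value thus holds for the brightest probe set alone, and the mean difference of both was −2.80. The third, not tested with the filter, was 2.84 ± 0.20 and 2.28 ± 0.13 (n = 3 each). It was above the median on 1 GFP_min array and on no GFP_plus array. All 3 probe sets were thus lower in GFP_plus without overlap, at different brightness, but the third was near background in both groups. Dusp3 and Dusp22 passed the level filter through the GFP_min arrays. In a bulk sample fewer cells expressing a gene and less RNA of it per cell cannot be told apart.

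**Figure D2:**
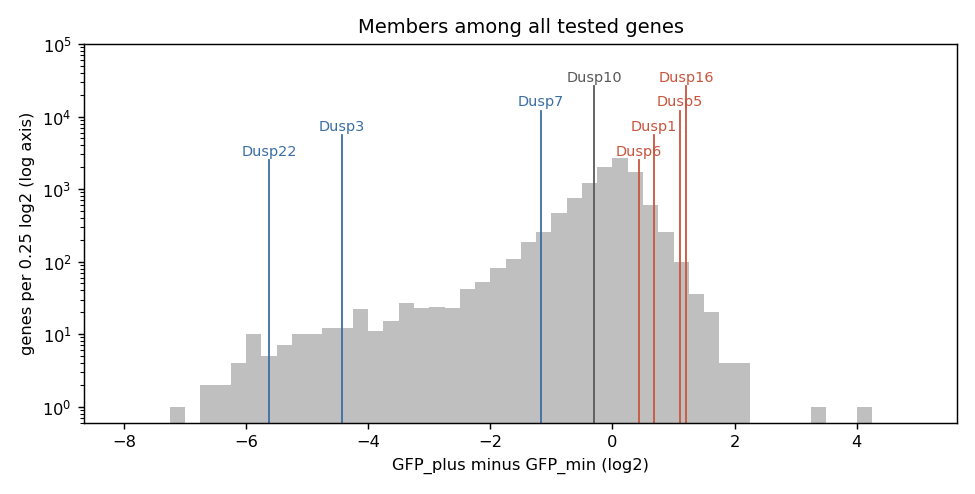
Number of tested genes by their difference, GFP_plus minus GFP_min in log2 (horizontal axis, bins of 0.25), on a logarithmic vertical axis, with lines at the 8 tested members, red for higher, blue for lower and grey for not passed. Dusp22 at −5.63 and Dusp3 at −4.43 lie in the long lower tail, and the 4 members that rose lie between 0.43 and 1.21.

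Falls of at least 1 log2 that passed were seen in 8.75% of all genes and rises of that size in 1.52%. Of the 8 tested members, Dusp3, Dusp7 and Dusp22 fell and Dusp5 and Dusp16 rose by at least that much. The median difference of the tested members was 0.06, beside 0.0023 for all genes, since the large falls and the smaller rises lie on either side of it.

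The differences above are on the deposited scale, and each of 3 centrings of the arrays adds a constant to all of them, while quantile normalization moves genes by different amounts. Centring on the median of tested probe sets adds 0.20 to every difference, on ribosomal protein genes 0.82 and on the spiked poly-A controls −0.42. Among all genes that passed, those higher in GFP_plus made up 43.2% on the deposited scale, 50.2% after quantile normalization, and 68.1%, 91.7% and 5.05% with these 3 centrings. The 7 members that passed had the same direction on all of these scales, and Dusp10 turned with ribosomal centring. Dusp5 and Dusp16 passed as higher and Dusp3 and Dusp22 as lower on every one of them.

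**Figure D3:**
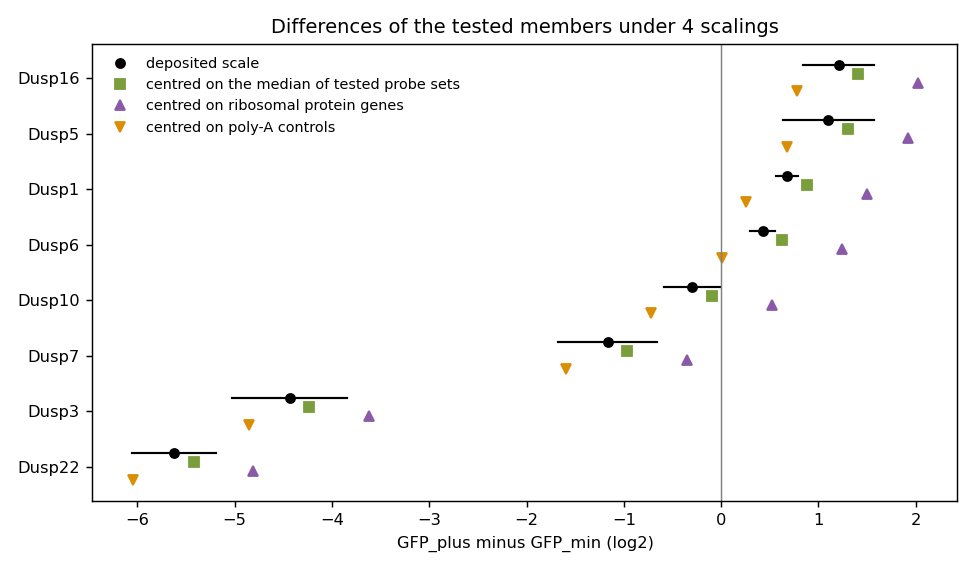
Difference of each tested member, GFP_plus minus GFP_min in log2 (horizontal axis), on the deposited scale (black circles, with 95% intervals as lines) and with 3 other centrings of the arrays (coloured symbols). Dusp5 and Dusp16 stay above 0 and Dusp3, Dusp7 and Dusp22 below 0 with all 4, Dusp6 is 0.0058 with poly-A centring and Dusp10 changes sign with ribosomal centring.

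Markers of other cell types moved between the same samples, and their part in the member results was not tested. All 13 tested monocyte markers of 15 listed were lower in GFP_plus, and none lay below the medians on all GFP_plus arrays. Their mean log2 level was 12.14 to 12.20 on GFP_min and 7.65 to 7.78 on GFP_plus arrays. Of 6 tested dendritic cell markers 4 were lower and 1 higher, with means of 5.73 to 5.92 and 3.59 to 3.66, and 3 lay below the medians on all GFP_plus arrays. All 7 primary granule markers were higher, with means of 9.11 to 9.26 and 10.56 to 10.81. Of 8 tested basophil and mast cell markers 7 were higher and 1 lower, with list means of 4.56 to 4.60 and 6.09 to 6.11. Hdc, whose reporter was used for the sort, is among the 7 higher ones. Of the 8, 2 lay below the medians on all GFP_min arrays. Of 12 tested mature neutrophil markers 6 were higher and 0 lower, with means of 12.97 to 13.03 and 13.29 to 13.35. Tested eosinophil markers were higher for 2 of 2 (7 listed) and erythroid markers for 2 of 2 (7 listed). The erythroid marker Car1 lay below the medians on all GFP_min arrays. Macrophage markers were higher for 3 of 6 with 2 lower, and 1 lay below the medians on all GFP_plus arrays. B cell markers were lower for 1 of 5, and T and NK cell markers higher for 1 and lower for 2 of 5. The higher one is Nkg7, which is also counted among the primary granule markers. RNA quality was read from the 3′ to 5′ signal gap of the Gapdh control, which was wider by 0.32 log2 in GFP_plus (0.26 to 0.37 on GFP_min and 0.59 to 0.66 on GFP_plus arrays), and from that of beta-actin, which differed by 0.061 with overlapping groups (0.79 to 0.83 and 0.82 to 0.90).

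Genes whose profile over the 6 arrays lay nearest to a member were sought for the largest fall and the largest rise, by root mean square difference of log2 values centred on each gene's mean. Nearest to Dusp22 were Ccr2, the receptor that draws monocytes from marrow (0.13), Rassf4 (0.16) and Prdx4, a peroxiredoxin (0.16). Nearest to Dusp16 were Slc25a33, a mitochondrial nucleotide carrier (0.12), Mgat4a, a glycosyltransferase (0.13), and Sfmbt2 (0.14). The difference between the groups was −5.52 for Ccr2, a listed monocyte marker, −5.78 for Rassf4, −5.85 for Prdx4 and 1.31 for Slc25a33. With 2 groups of 3 arrays this distance mainly picks genes with a group difference of similar size. That of Dusp22 rests on GFP_plus values near background, while Ccr2 was 6.51 in GFP_plus. Shared regulation was not tested.

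Of other dual-specificity phosphatases, 14 of 23 listed were tested, of which 1 was higher and 6 lower, with a median of −0.13. Ssh1, a slingshot phosphatase that activates cofilin, fell by 1.68 on the log2 scale (limma adjusted p = 4.03e-05), while Ssh2 of the same family rose by 0.38 (0.000235). Dusp12, a dim gene, fell by 0.70, from 3.91 to 3.21, and Ptp4a2 fell by 0.26. The KIM tyrosine phosphatases inactivate MAP kinases through their tyrosine alone. Of 3 listed, Ptpn5 was tested and rose by 0.33 from near the array medians (limma adjusted p = 0.0243). That call was lost without GFP_min replicate a (difference 0.30) or GFP_plus replicate c (difference 0.27).

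The MAP kinases include the substrates of these phosphatases. Of 14 listed, 8 were tested, with 3 higher, 2 lower and a median of −0.0015. Mapk13, which encodes p38 delta, rose from 10.66 ± 0.07 to 11.14 ± 0.12 (mean ± SD, n = 3 each), by 0.47 (limma adjusted p = 0.000533). Mapk8, a JNK gene, fell by 0.64. Nlk rose by 0.29, a call lost without GFP_min replicate a (0.25), without GFP_plus replicate a (0.26) and with the replicate block (adjusted p = 0.0637). Mapk4 rose by 0.62 and lost its call without GFP_min replicate b (0.55). Mapk14, the main p38 gene, named after its values were seen, was 11.77 ± 0.03 and 11.72 ± 0.10 (n = 3 each) and did not pass (limma adjusted p = 0.503).

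Of the MAP2 kinases, which phosphorylate the MAP kinases, 6 of 7 were tested, with 1 higher and 3 lower. Map2k4, which activates JNK and p38, rose by 0.52, and Map2k6, Map2k1 and Map2k5 fell by 0.46, 0.22 and 0.44 on the log2 scale. Map2k6 was dim, at 3.26 in GFP_min and 2.81 in GFP_plus, where 1 of the 3 arrays lay above its median. Map2k1 did not pass with the replicate block (limma adjusted p = 0.0682) or without limma's intensity trend (limma adjusted p = 0.0566). The call of Map2k5 was lost with the block (limma adjusted p = 0.0504) and without GFP_min replicate a (difference −0.41). It was also lost after quantile normalization (difference −0.26) and with the mean of its probe sets (difference −0.23). Of RAF and MAP3 kinases, 16 of 19 were tested, with 6 higher, 5 lower and a median of −0.02. Map3k5, the stress kinase ASK, rose by 0.70, Map3k9 by 0.80 and Map3k3 by 0.39, and Map3k20 fell by 1.08 on that scale.

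RAS genes and their regulators gave 4 higher and 6 lower of 16 tested (20 listed), with a median of 0.10. Rras, a relative of RAS that acts on integrin adhesion, showed the largest difference among the pathway genes tested, from 7.72 ± 0.18 to 3.51 ± 0.36 (n = 3 each), −4.21 (limma adjusted p = 1.42e-07). Rras2 was 3.35 in GFP_min and lay below the medians on all GFP_plus arrays. With those values raised to the median it was 1.40-fold lower on the deposited scale. The exchange factor gene Rasgrp2 rose by 0.76 and the GTPase activator gene Rasa2 by 0.39. Of 10 tested scaffold genes (12 listed) 2 were higher and 2 lower, with Ksr1, which assembles RAF, MEK and ERK, up by 1.22 and Iqgap1 by 0.34. Lamtor3 fell by 0.36 and Lamtor2 by 0.33. Lamtor2 lost its call without GFP_min replicate b, GFP_plus replicate b or GFP_plus replicate c (differences −0.21, −0.26 and −0.35). Its call was also lost with the block (limma adjusted p = 0.0855), no level filter (0.054), no intensity trend (0.0768) or array weights (0.0738). Of 7 tested MAPK-activated kinases (11 listed) 1 was higher, Rps6ka5 by 0.51, and 1 lower, Mapkapk3 by 0.19. The call of Mapkapk3 was lost with the block (limma adjusted p = 0.130). Leaving out 1 array also lost it, with differences of −0.20, −0.14 and −0.21 without GFP_min a, b and c. The same held without GFP_plus b (difference −0.12) and c (difference −0.20). Its call was lost as well with no level filter (limma adjusted p = 0.067), no intensity trend (0.156) and array weights (0.105).

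Genes known as outputs and feedback regulators of ERK signalling, the class to which Dusp6 belongs, were higher for 7 and lower for 2 of 13 tested (22 listed), and their median of 0.34 was −0.08 under poly-A centring. Ier3 rose by 0.74 (limma adjusted p = 0.000148), Phlda1 by 0.66 and the immediate early factor gene Egr1 by 0.78, from 3.13 ± 0.05 to 3.91 ± 0.11 (n = 3 each). The GFP_min level of Egr1 was close to the array medians. Spred1, an inhibitor of RAS to RAF signalling, fell by 0.92 on the log2 scale, from 3.77 to 2.85. In GFP_plus 2 of the 3 arrays lay above their median for Spred1. With poly-A centring 1 gene of the list was higher and 3 were lower.

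Nuclear targets of the MAP kinases were higher for 7 and lower for 5 of 15 tested (17 listed), and their median of 0.18 was −0.24 under poly-A centring. Junb, an AP-1 subunit, rose from 6.05 ± 0.30 to 8.18 ± 0.09 (n = 3 each), by 2.13 (limma adjusted p = 3.57e-06). The ETS factor gene Elk3 fell by 2.47, and the p38 targets Mef2c and Mef2a by 1.86 and 0.74 on the log2 scale.

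Dusp1 is also among the genes that rise when tissue is dissociated and cells are sorted. Of 13 tested genes of that kind (15 listed, Dusp1 not among them, 8 shared with the 2 lists before), 7 were higher and 1 lower. Their median was 0.22, and −0.21 under poly-A centring. Their mean log2 level was 7.85 to 7.93 on GFP_min and 8.21 to 8.30 on GFP_plus arrays. Zfp36, which destabilises cytokine mRNAs, rose by 0.93 and Junb by 2.13. The part of cell handling in the rise of Dusp1 was not tested.

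**Figure D4:**
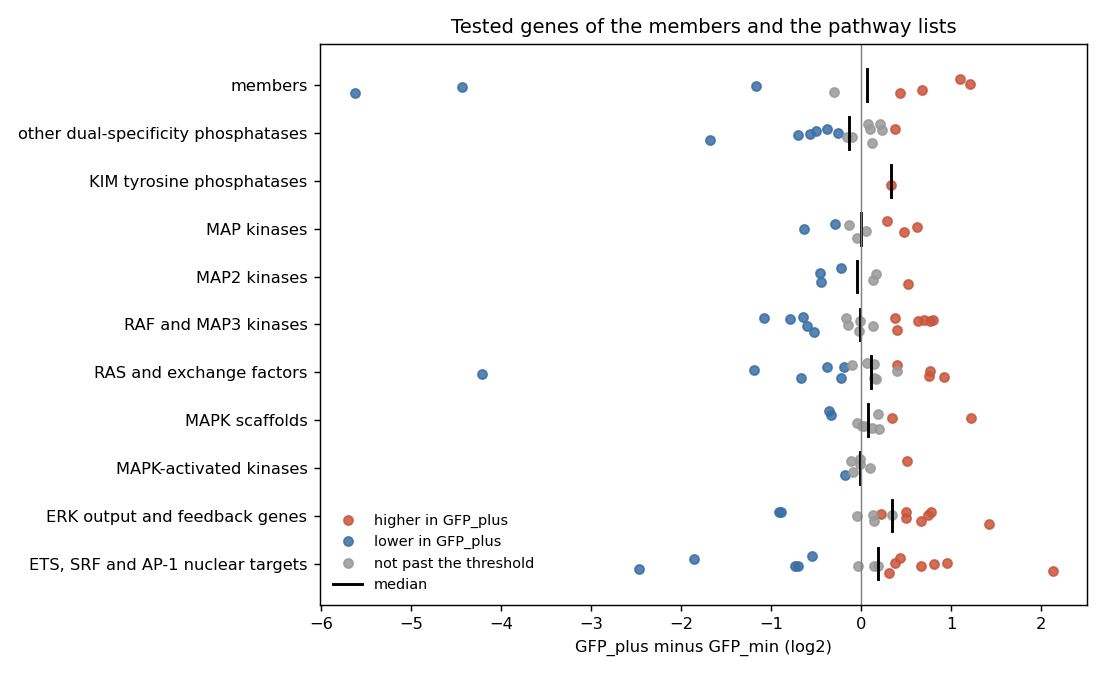
Differences of all tested genes of each list, GFP_plus minus GFP_min in log2 (horizontal axis), 1 point per gene, red for higher, blue for lower and grey for not passed, with black bars for list medians. The members span −5.63 to 1.21, and the medians of the pathway lists lie between −0.13 and 0.34.

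The direction of some of these pathway genes depends on the scale. With ribosomal centring the falls of Dusp12, Ptp4a2, Mapk8, Map2k6, Map2k1, Map2k5, Lamtor3, Lamtor2, Mapkapk3 and Mef2a turned positive, and with poly-A centring the rises of Ssh2, Ptpn5, Nlk, Map3k3, Rasa2 and Iqgap1 turned negative. Mapkapk3 also turned with median centring. Poly-A centring ended the calls of Mapk13, Mapk4, Map2k4, Map3k5, Map3k9, Rasgrp2, Rps6ka5, Phlda1, Ier3 and Egr1, ribosomal centring those of Map3k20 and Spred1, and median centring those of Ptp4a2, Map2k6, Map2k1, Map2k5, Lamtor3 and Lamtor2. In several genes not all tested probe sets shared the call, namely 2 of 3 in Ssh1, Mapk8, Nlk, Map3k20 and Elk3, 1 of 2 in Dusp12, Map2k4, Map3k9, Rps6ka5 and Mapkapk3, 1 of 4 in Map2k5, 2 of 4 in Rasgrp2, 3 of 4 in Spred1, 5 of 6 in Iqgap1 and 2 of 6 in Mef2a.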

How the data were processed

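Total RNA was amplified and biotinylated with Affymetrix 3′ IVT chemistry, according to the labels. The authors deposited log2 expression values for 45101 probe sets on 6 arrays. GCRMA is named by the submitters' processing notes, with version and settings not given in the sources used here. The log2 unit was read from the values. Probe sets were named by the platform annotation, updated through RefSeq, and those with several symbols named no gene. GFP_plus minus GFP_min was fitted with limma 3.58.1 in R 4.3.3 (lmFit, eBayes with intensity trend, Benjamini-Hochberg over 22956 tested probe sets, threshold 0.05). A gene stands by its brightest tested probe set. Named genes are the members and up to 4 called genes of each pathway list with the smallest adjusted p. The members and lists were chosen with earlier results of these data known. Alternatives changed the filter, variance model, weights, scaling, probe sets, size threshold, block and samples. The fit was tested on simulated data. Figures used matplotlib 3.10.9.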

Additional observations from a re-analysis of the deposited data

How the results depend on the processing

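On the deposited scale 4 members were higher and 3 lower, and 2275 genes were higher and 2988 lower. With poly-A centring 2 members were higher, and 280 genes were higher and 5270 lower. With ribosomal centring 8594 genes were higher and 773 lower, and with median centring 4472 were higher. A size threshold of 1 log2 left 2 members higher and 164 genes higher and 946 lower. With a level filter on all 6 arrays 1 member was lower, since Dusp3 and Dusp22 were then not tested. The differences that turned with ribosomal centring became 0.52 for Dusp10, 0.12 for Dusp12, 0.56 for Ptp4a2, 0.18 for Mapk8, 0.36 for Map2k6, 0.59 for Map2k1, 0.37 for Map2k5, 0.46 for Lamtor3, 0.48 for Lamtor2, 0.63 for Mapkapk3 and 0.0825 for Mef2a. With poly-A centring they became −0.0426 for Ssh2, −0.089 for Ptpn5, −0.14 for Nlk, −0.0273 for Map3k3, −0.0302 for Rasa2 and −0.0795 for Iqgap1, and with median centring Mapkapk3 became 0.0168. Each centring adds a constant to every difference, which is what turned these signs. Leaving out any 1 array kept the counts of members at 4 higher and 3 lower, or 4 lower without GFP_plus replicate b, where Dusp10 passed. Same-lettered arrays of the groups deviated against each other (correlations −0.18, −0.30 and −0.22), so the letters were not taken as pairs. With the replicate block 1737 genes were higher and 2603 lower, and 4 members higher and 4 lower. Dim probe sets limit Dusp2, Dusp4 and Dusp10, and the lower ends of Dusp3 and Dusp22.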
